A study of Mus musculus with 2 samples.

Results

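The NDUF genes carry the nuclear-encoded subunits of respiratory complex I and many of its assembly factors. They were taken by name from the deposited transcript tables: every gene called Nduf followed by a, b, c, s or v and a number, plus Ndufab1 and every gene whose name starts with Ndufaf. This rule took 45 genes, of 18497 annotated genes with at least 1 read in either library. All 45 had reads in both libraries. No measured value entered the rule.

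Complex I is the entry point of electrons from NADH into the mitochondrial respiratory chain. Its matrix arm takes electrons from NADH and passes them along iron-sulphur clusters to ubiquinone, and its membrane arm pumps protons. A core of subunits with bacterial relatives does the chemistry, and part of that core is encoded in mitochondrial DNA. Accessory subunits surround the core, and assembly factors help to build the enzyme but do not stay in it. Neurons draw most of their ATP from oxidative phosphorylation, and defects of complex I are a common cause of mitochondrial disease of the brain.

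The study sequenced long cDNA reads from mouse hippocampus, in 1 group of 2 libraries. The mice were female, 2 months old and of strain B6CASTF1/J, an F1 hybrid of C57BL/6J and CAST/EiJ, with no treatment or engineered allele named in the labels, and each library started from 2 µg of RNA. The labels number the libraries as biological replicates 1 and 2 but give them the same donor entry. Whether they came from separate animals is not stated, so every test below compares these libraries and no conditions. Each p-value sets their difference against counting error only, because 1 library on each side gives no estimate of the spread between libraries.

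The tables held 826596 reads not on spike-ins in replicate 1 and 745492 in replicate 2. Levels are counts per 1000000 of these reads (CPM). A long read counts once whatever its length, so counts were not divided by length. How far capture and sequencing depend on transcript length was not tested. One read was worth 1.21 and 1.34 CPM, and a gene with no read could have been at up to 3.63 and 4.02 CPM, an upper limit of 3 counts that covers counting error only. Hippocampal markers were present: the CA1 genes Wfs1, Mpped1 and Fibcd1 each passed 100 CPM, and of the dentate granule cell genes C1ql2 was at 151 and 156 CPM, Prox1 at 13.3 and 25.5 CPM and Dsp at 1.21 and 2.68 CPM. The CA3 genes Bok and Grik4 were at 126 and 96.6 CPM and at 36.3 and 25.5 CPM. Of 4 choroid plexus genes, Otx2 and Aqp1 had no read, while Ttr was at 328 and 176 CPM. In bulk tissue, fewer cells of a type and less RNA per cell cannot be told apart.

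Several results below turn on which exons the reads hold, so the coding sequence at those places is shown first. Each stretch comes from a GENCODE M21 transcript on mm10 and is written 5′ to 3′ in the sense of the gene. For Ndufa4, the last 3 coding exon pieces of Ndufa4-205 are joined (chr6:11906020-11906108, chr6:11905202-11905262 and chr6:11900538-11900591, minus strand). For Ndufs7, exons 6 and 7 and the coding part of exon 8 of Ndufs7-201 are joined (chr10:80255090-80255136, chr10:80255924-80256012 and chr10:80256636-80256730, plus strand). In both, the capitals mark the exon at which the read model with the most reads begins. For Ndufb3, the capitals mark the coding part of the last exon of Ndufb3-201 (chr1:58595649-58595802, plus strand), after the last 30 bases of exon 2.
Ndufa4: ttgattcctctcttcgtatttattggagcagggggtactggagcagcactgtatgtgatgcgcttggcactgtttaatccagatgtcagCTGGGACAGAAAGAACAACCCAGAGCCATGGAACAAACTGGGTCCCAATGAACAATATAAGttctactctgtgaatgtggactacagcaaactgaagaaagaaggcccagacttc
Ndufs7: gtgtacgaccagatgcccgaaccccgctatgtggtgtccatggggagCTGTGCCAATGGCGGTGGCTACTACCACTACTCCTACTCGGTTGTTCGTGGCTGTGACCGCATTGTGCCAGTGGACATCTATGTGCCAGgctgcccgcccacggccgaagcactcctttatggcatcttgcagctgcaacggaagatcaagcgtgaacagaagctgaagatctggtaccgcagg
Ndufb3: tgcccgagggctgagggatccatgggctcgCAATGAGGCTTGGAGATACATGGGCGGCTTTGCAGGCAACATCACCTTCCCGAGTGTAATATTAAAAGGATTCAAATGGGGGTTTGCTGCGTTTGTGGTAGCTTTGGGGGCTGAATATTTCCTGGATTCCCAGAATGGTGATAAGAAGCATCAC

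The NDUF genes together took 7486 reads in replicate 1 and 6212 in replicate 2, which is 0.906% and 0.833% of the reads. Their median level was 181 ± 5.68 CPM (SD over the libraries, n = 2, as for every ± value below). The median of the 13066 protein-coding genes with reads in both libraries was 24.2 CPM. A mean of 100 CPM or more was reached by 32 of the 45 genes, against 14.5% of those protein-coding genes, and 38 of the 45 lay above the 75th percentile of them. The 13 genes under 100 CPM were 7 of the 8 assembly factors and 6 subunits.

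**Figure D1:**
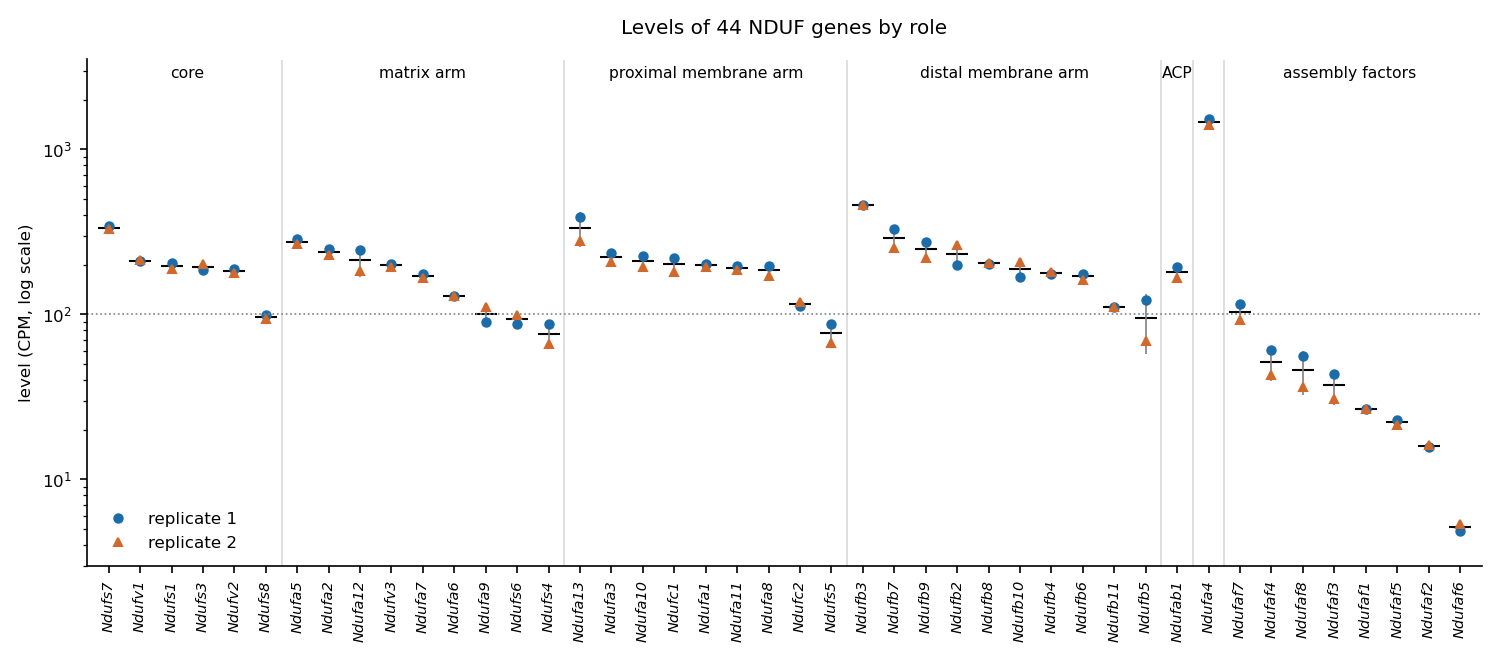
Level of 44 NDUF genes in CPM on a log axis, grouped by role, with a circle for replicate 1, a triangle for replicate 2, a black line for the mean and a grey bar for ± 1 SD (n = 2). The dotted line is 100 CPM, ACP stands for acyl carrier protein, and the unlabelled column is Ndufa4. Ndufa4 stands alone at the top, most subunits lie between 100 and 300 CPM, and 7 of the 8 assembly factors lie below the line.

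The core subunits of the matrix arm had a median of 188 ± 0.658 CPM, and 6 of 7 passed 100 CPM. Ndufs7 (chr10:80249121-80256794), which binds the last iron-sulphur cluster before ubiquinone, was the highest at 341 and 330.0 CPM. Over full-splice reads only, those with a whole intron chain, scaled per 1000000 such reads, it was at 219 CPM, below Ndufv1 (294 CPM), Ndufs1 (285 CPM), Ndufs3 (282 CPM) and Ndufv2 (274 CPM). Ndufv1, which binds NADH and flavin, was at 209 and 213 CPM. Ndufv2, its iron-sulphur partner at the tip of the arm, was at 189 and 177 CPM. These partners thus lay close together in both libraries. Ndufs1, the largest subunit, was at 204 and 188 CPM. Ndufs3, a structural core subunit of the arm, was at 185 and 201 CPM. The lowest core subunit was Ndufs8, an iron-sulphur protein, at 99.2 and 93.9 CPM.

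The 9 accessory subunits of the matrix arm had a median of 171 ± 6.42 CPM, and 6 of them passed 100 CPM. Ndufa5 was the highest at 286 and 266 CPM. Over full-splice reads only it was at 304 CPM, below Ndufa2 (357 CPM) and Ndufa12 (314 CPM). Ndufa2, which has a thioredoxin-like fold, was at 248 and 229 CPM. Ndufa12, a relative of the assembly factor Ndufaf2, was at 246 and 182 CPM. The upper members of this group were higher in replicate 1. Ndufv3, a small subunit beside the NADH site, was at 201 and 195 CPM. Ndufa7 was at 175 and 166 CPM, and Ndufa6, which binds the acyl carrier protein, was at 129 and 129 CPM. The other members lay around or under 100 CPM. Ndufa9, a distant member of the dehydrogenase family, was at 89.5 and 110.0 CPM. Ndufs6, a zinc-binding subunit, was at 87.1 and 99.3 CPM. Ndufs4, whose loss in mice is a model of Leigh syndrome, was at 87.1 and 65.7 CPM and was the lowest subunit with all models counted.

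The 9 accessory subunits of the proximal membrane arm had a median of 194 ± 11.0 CPM. Ndufa13 (chr8:69894180-69902558), also known as GRIM-19, was the highest at 391 and 278 CPM, but at 3.90 CPM over full-splice reads only. Ndufa3 was at 235 and 208 CPM, and Ndufa10, a relative of nucleoside kinases, was at 226 and 193 CPM. Ndufc1 was at 220.2 and 181 CPM. In these 4 genes the replicate 1 value was the higher one. The X-linked Ndufa1 was at 202 and 195 CPM. Ndufa11 was at 197 and 186 CPM, and Ndufa8 was at 197 and 172 CPM. Ndufc2 was lower, at 113 and 118 CPM. Ndufs5 was the only one of the group under 100 CPM, at 87.1 and 67.1 CPM.

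The 10 accessory subunits of the distal membrane arm had a median of 197 ± 13 CPM, and 9 passed 100 CPM. Ndufb3 (chr1:58586384-58595964) was the highest at 461 and 460.1 CPM. Over full-splice reads only it was at 126 CPM, and Ndufb7 was then the highest of the group at 440 CPM. Ndufb7, an intermembrane-space subunit held by disulphide bonds, was at 330.3 and 251 CPM. Ndufb9, which like Ndufa6 binds an acyl carrier protein, was at 276 and 219 CPM. The replicates were nearly equal for Ndufb3 and further apart for Ndufb7 and Ndufb9. Ndufb2 was at 198 and 263 CPM. Ndufb8 was at 202 and 205 CPM, and Ndufb10 was at 169 and 207 CPM. Ndufb4 was at 175 and 180 CPM, and Ndufb6 at 177 and 162 CPM. The X-linked Ndufb11 was lower, at 110.1 and 111 CPM. With all models counted, Ndufb5 was the lowest of the group and the least even, at 122 and 68.4 CPM. Over full-splice reads only it was at 145 CPM, above Ndufb3. Ndufab1, the mitochondrial acyl carrier protein, which also serves fatty acid and iron-sulphur cluster synthesis, was at 192 and 166 CPM.

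Ndufa4 (chr6:11900292-11907497, minus strand) was first described in complex I and is now placed in complex IV. It was at 1533 and 1407 CPM, 1470.0 ± 88.9 CPM on average. This was 3.19 times the next gene and 7.64 times the median of the other subunits, and it took 16.9% of all NDUF reads in each library. Most of its reads were partial: over full-splice reads only, Ndufa4 was at 690.3 ± 17.5 CPM, 1.57 times the next gene (Ndufb7) and 2.60 times the median of the other subunits. Without it, and with all models counted, the other 36 subunits lay within 6.03-fold of each other, and 27 of the 36 were between 100 and 300 CPM.

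Assembly factors were lower, with a median of 32.0 ± 4.41 CPM. Ndufaf7, a methyltransferase, was the highest at 115 and 92.6 CPM. Over full-splice reads only it was at 53.2 CPM, below Ndufaf4 (69.2 CPM) and Ndufaf3 (53.7 CPM). Ndufaf4 was at 60.5 and 42.9 CPM, and its binding partner Ndufaf3 was at 43.6 and 30.9 CPM. Ndufaf8 was at 55.6 and 36.2 CPM, and the factor it stabilises, the hydroxylase Ndufaf5, was at 23.0 and 21.5 CPM. These pairs differed by less than 3-fold within each library. Ndufaf1, which joins the membrane arm assembly complex, was at 26.6 and 26.8 CPM. Ndufaf2 was at 15.7 and 16.1 CPM. With all models counted, Ndufaf6 was the lowest of all, at 4 reads in each library (4.84 and 5.37 CPM).

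Assembly factors with other names were also low. Of 14 such genes, 13 were found in the annotation, with a median of 28.5 ± 4.22 CPM. Tmem70 was the only one over 100 CPM (116 and 109 CPM), and Nubpl had no read in replicate 1 and 2 in replicate 2. The 7 core subunits encoded in mitochondrial DNA had a median of 55.4 ± 18.4 CPM, below that of the nuclear core subunits. Among them mt-Nd2 was the highest at 203 and 188 CPM, and mt-Nd4l had 4 reads and none. How well the library preparation captures mitochondrial transcripts was not tested.

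Other respiratory complexes set the scale. The median was 177 ± 0.736 CPM over 4 genes of complex II and 222 ± 30.6 CPM over 9 genes of complex III. It was 437 ± 25.7 CPM over 10 genes of complex IV and 260 ± 17.9 CPM over 15 genes of ATP synthase. Ndufa4 lay within the range of the complex IV genes, which ran from 198 to 1958 CPM, and above all of them but Cox4i1. Of 6 further genes with Nduf in their names, Ndufa11b, Ndufab1-ps, Ndufb4c and Ndufs6b had no read and Ndufa4l2 had 3 and 2. Ndufb1-ps, annotated as a long non-coding RNA in GENCODE M21 and listed by RefSeq as the protein-coding gene Ndufb1, had 150 and 111 reads (181 and 149 CPM).

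Between the libraries, levels were compared with a two-sided exact binomial test per gene against the ratio of the totals. P-values were adjusted by Benjamini-Hochberg over all 9062 genes with at least 20 reads together, and a call needed an adjusted p under 0.05 and a change of at least 2-fold. None of the 44 NDUF genes tested was called, where the background was 0.309% of all genes, and Ndufaf6 had too few reads to be tested. Without the limit on fold, the background was 0.574% and 1 NDUF gene passed. That gene was Ndufa13, with 323 and 207 reads, 1.41-fold higher in replicate 1 (adjusted p = 0.0294, exact binomial test). At an unadjusted p under 0.05, 7 of the 44 NDUF genes passed, against 672 of all 9062 genes (7.42%).

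The largest fold was that of Ndufb5, with 101 and 51 reads, 1.78-fold higher in replicate 1 (adjusted p = 0.0853, exact binomial test). Ndufaf8 followed with 46 and 27 reads, at 1.52-fold (adjusted p = 0.734, exact binomial test). Otherwise 42 of the 44 genes lay within 1.5-fold. Most leaned the same way: 32 of 44 were higher in replicate 1, against 49.1% of all genes tested, and the median log2 ratio was 0.09, against −0.01 for all genes. The summed level of the 10 complex IV genes was also higher in replicate 1 (6622 and 5516 CPM), with Cox4i1 alone at 2336 and 1580 CPM, as was that of the 15 ATP synthase genes (5888 and 5418 CPM). The sums were 2399 and 2381 CPM for the 9 complex III genes and 855 and 836 CPM for the 4 complex II genes. They were 492 and 496 CPM for the mitochondrially encoded subunits, and 422 and 435 CPM for the assembly factors with other names. The part of the library in these leanings was not tested.

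**Figure D2:**
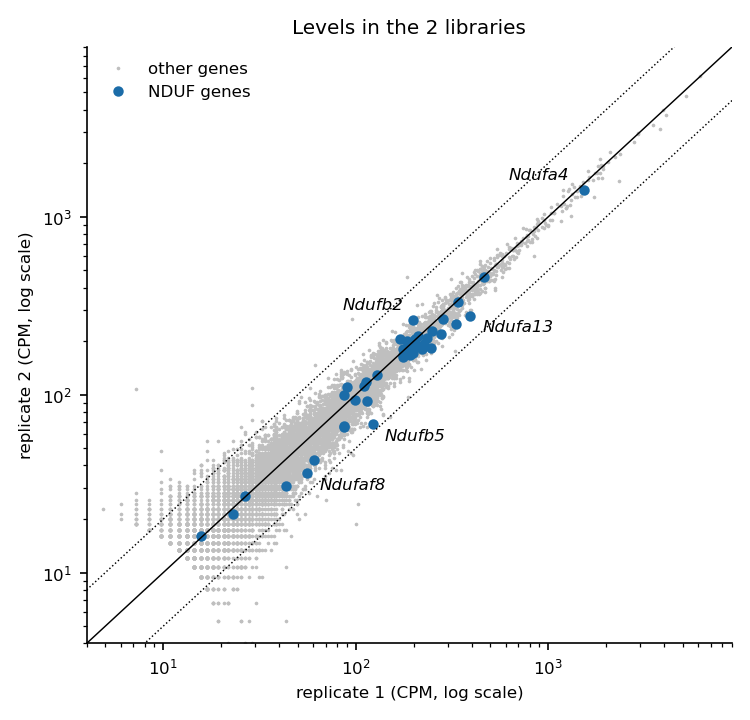
Level in replicate 1 against replicate 2 on log axes (CPM) for tested genes, with 43 NDUF genes in blue. The solid line is equality and the dotted lines are 2-fold; every NDUF gene drawn lies within the dotted lines, and Ndufb5 is nearest to one.

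The reads of each gene were divided by the class that TALON gave their transcript model. Full-splice reads hold the whole intron chain of an annotated transcript, or an unannotated chain of their own. Incomplete splice matches hold only part of an annotated chain, and genomic models overlap the gene without matching its splicing. Over all NDUF reads, 72.1% ± 0.0208 were full-splice, 23.8% ± 2.17 were incomplete and 4.05% ± 2.19 were genomic. Reads of protein-coding genes had 12.7% ± 0.494 incomplete matches. Ndufa4 and Ndufa13 held most of the excess: without them the NDUF share was 10.5% ± 3.73. The median NDUF gene had 94.5% full-splice reads, where the median of 5928 protein-coding genes was 84.9%.

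Unannotated chains were rare in the NDUF genes. New combinations of annotated splice sites took 1.66% ± 0.0220 of their reads, against 7.55% ± 0.0326 in protein-coding genes. Chains with an unannotated splice site took 1.32% ± 0.0285, against 4.24% ± 0.0970. NDUF transcripts were also shorter, with a median of 4 exons and 861 bases in the leading isoform. The leading annotated isoforms of all genes had a median of 8 exons and 2639 bases.

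**Figure D3:**
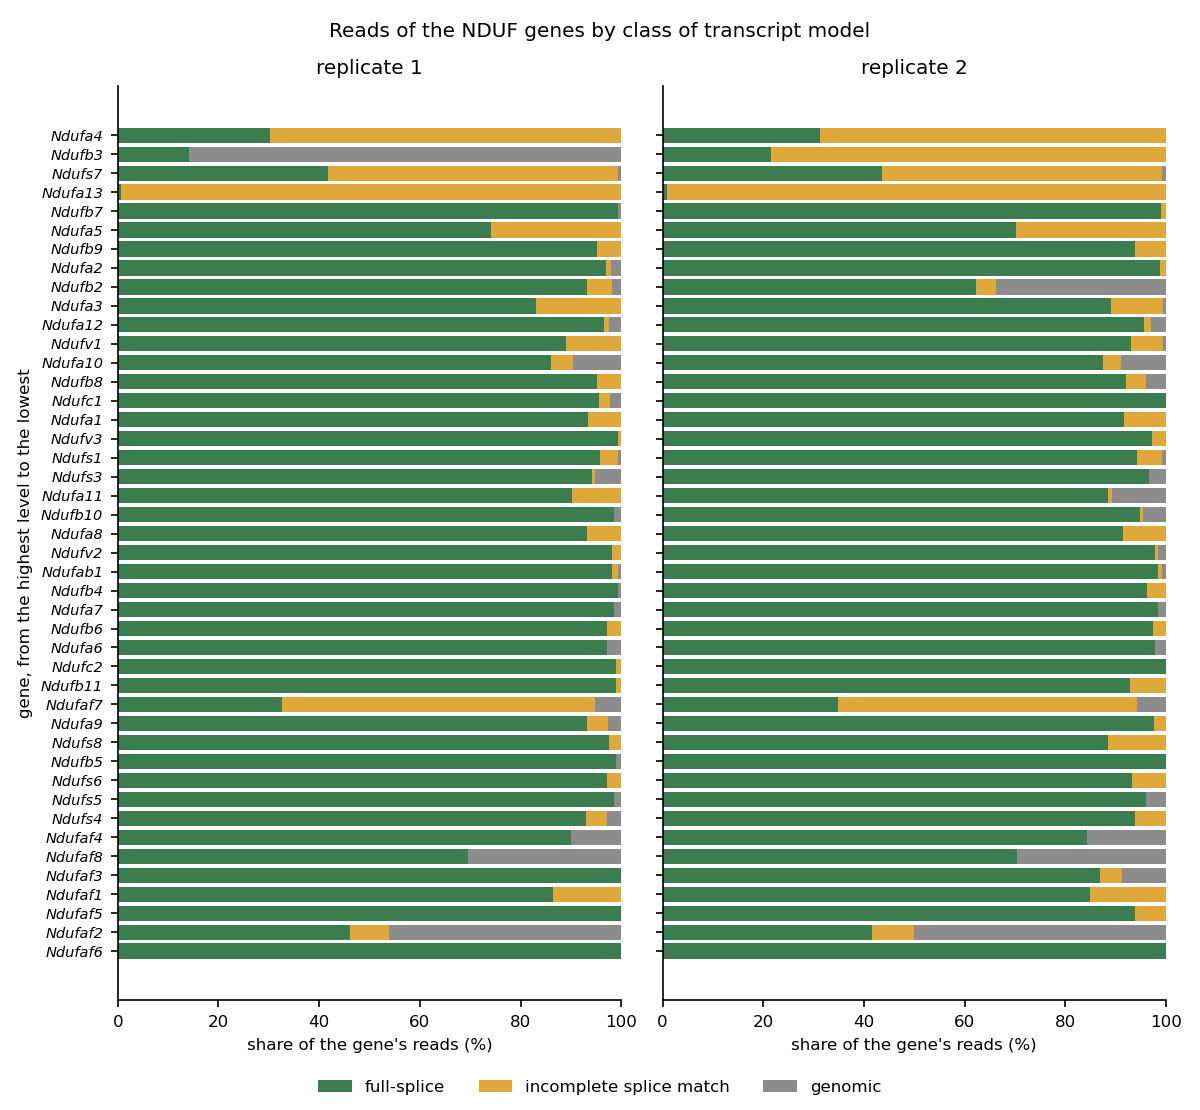
Share of reads of 44 NDUF genes in full-splice, incomplete splice match and genomic models, in percent, for replicate 1 (left) and replicate 2 (right), with genes in order of level. Most bars are mainly full-splice; Ndufa4, Ndufb3, Ndufs7, Ndufa13, Ndufaf7 and Ndufaf2 are under 50%, and the grey reads of Ndufb3 in replicate 1 are yellow in replicate 2.

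Under 50% full-splice reads were found in 6 of the 45 NDUF genes, against 12.8% of protein-coding genes. They were Ndufa13, Ndufb3, Ndufa4, Ndufaf7, Ndufs7 and Ndufaf2, and they include the 4 with the highest levels. In Ndufa4, only 382 and 322 reads held all 4 exons of Ndufa4-205. A model of exons 3 and 4 alone took 877 and 712 reads, which is 69.2% (95% Clopper-Pearson interval 66.6 to 71.8) and 67.9% (65.0 to 70.7) of the gene's reads. It starts at the 61-base exon in capitals above, and it lacks the start codon. Whether the RNA molecules themselves began there was not tested.

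Ndufs7 showed the same form. Its full 8-exon chain had 104 and 97 reads, while a model of exons 7 and 8 had 151 and 127 reads (53.5% and 51.6% of the gene's reads). It starts at the 89-base exon in capitals above. The groups of partial and full reads kept nearly the same proportion in both libraries for both genes. Of 1297 protein-coding genes whose count reached 100 in both libraries, 28 (2.16%) had a partial chain on 50% or more of their reads. Ndufa4, Ndufs7 and Ndufa13 were among them. Ndufb3 was not, because its last-exon reads were classed as a partial chain only in replicate 2 (78.4%). The number of NDUF genes that reached that count is not given here, so these genes cannot be set against the 2.16%.

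Ndufa13 had no read of an annotated full chain. Its only reads in full-splice classes were 2 in each library, and a 4-exon chain took 305 of 323 and 197 of 207 reads (94.8% ± 0.525). This chain is exons 2 to 5 of Ndufa13-201 and holds all 432 coding bases. What it lacks is exon 1, a non-coding exon of 678 bases. The incomplete class of Ndufa13 therefore held whole coding sequences, unlike those of Ndufa4 and Ndufs7. The neighbouring gene Yjefn3 shares exons with it: 26 of 36 and 12 of 20 Yjefn3 reads began at the edge of the Ndufa13 exon that holds its start codon, and the leading such model had 8 exons, 3 of them those of Ndufa13.

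**Figure D4:**
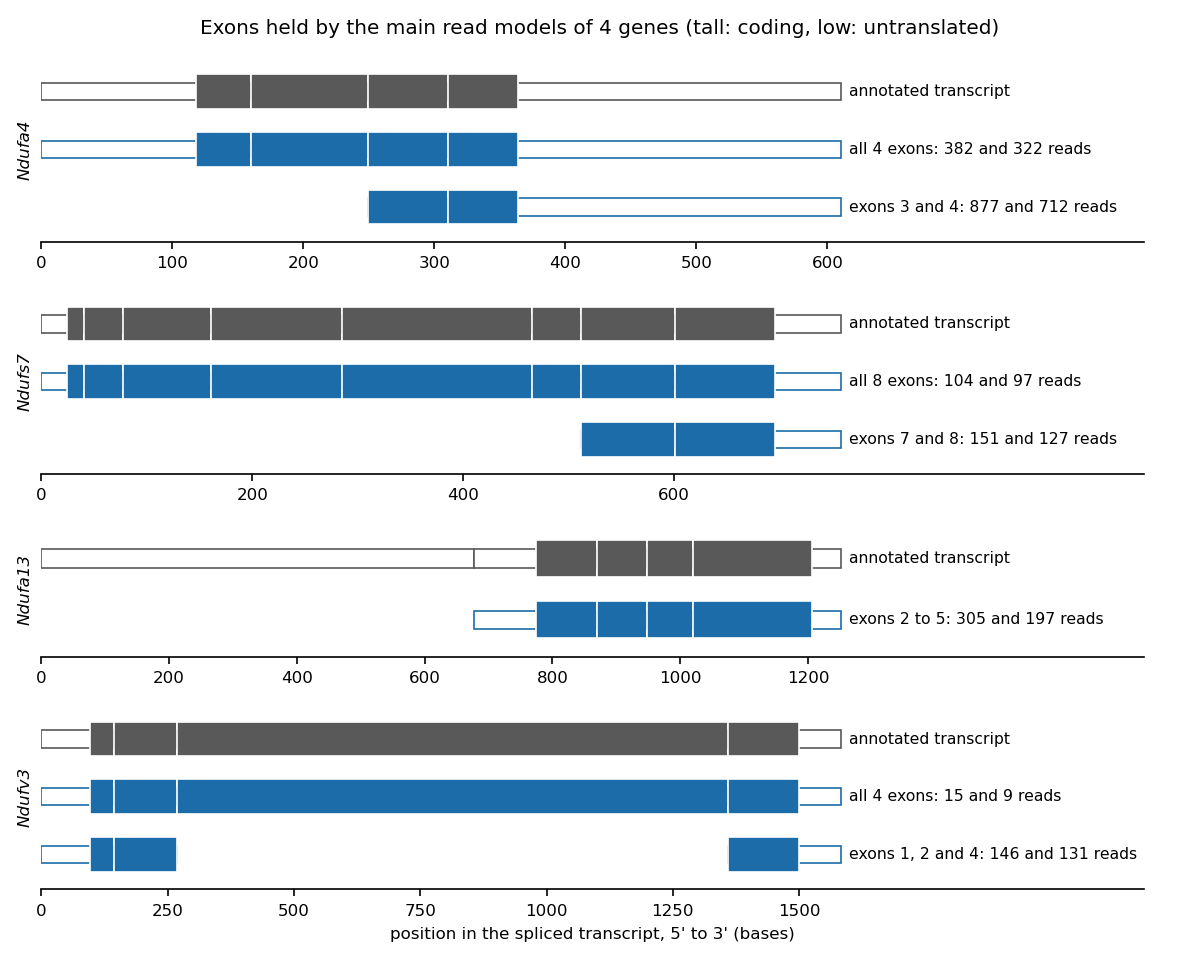
Exons held by the leading read models of Ndufa4, Ndufs7, Ndufa13 and Ndufv3, drawn to scale along the annotated transcript in bases from its 5′ end, with tall blocks for coding bases (stop codon not included) and low blocks for untranslated bases. Read counts are for replicate 1 and replicate 2; the 2-exon models of Ndufa4 and Ndufs7 hold only the 3′ end, the Ndufa13 model holds the whole coding sequence, and most Ndufv3 reads lack the long exon 3.

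Most Ndufb3 reads were given to single-exon models that cover its last exon. Replicate 1 had 327 reads (85.8% of the gene) in a genomic model of 1904 bases that starts 1588 bases before that exon. Replicate 2 had 269 reads (78.4%) in a single-exon incomplete match with the exact bounds of the exon. The total levels were nearly equal in the libraries, while the class and the model start differed. Only 53 and 73 reads held the 3 exons of Ndufb3-201. Without genomic models, Ndufb3 therefore had 54 and 343 reads and was called (6.97-fold lower in replicate 1, adjusted p = 6.86e-56, exact binomial test, with 0.71% of all genes called). This call follows from the class that each library's reads were given.

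Smaller groups of reads in the last exon were seen elsewhere. Ndufa5 had 49 and 53 reads in its last exon alone (20.8% and 26.8%). Ndufaf7 had 57 and 38 (60.0% and 55.1%), beside 21 and 19 full-chain reads of Ndufaf7-201. Ndufa11 had 13 reads in replicate 1 classed as incomplete and 15 in replicate 2 classed as genomic at nearly the same place.

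Ndufb2 (chr6:39592574-39603382) was higher in replicate 2, and 65 of its 196 reads there lay in a single-exon genomic model that runs 4287 bases past the annotated end of the gene. In replicate 1, 52 reads at nearly the same interval (chr6:39603382-39607669) were given to an unannotated antisense gene. With all reads of that interval counted in both libraries, Ndufb2 was at 261 and 263 CPM. Without them it was at 198 and 176 CPM.

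For isoforms, shares of full-splice reads were computed where a gene had at least 20 in each library, which held for 39 of the 45 NDUF genes and 4819 genes in all. The leading isoform was an annotated one in all 39, whereas in all genes it was unannotated in 6.25%. Its median share was 92.6% (range of the middle 50% of genes, 89.8 to 96.4), where the median over all genes was 84.2% (62.4 to 94.5). It reached 90% in 29 of the 39 NDUF genes (74.4%) and in 38.1% of all genes. More than 1 isoform with 10% or more in each library was seen in 3 of 39 (7.69%), against 29.99% of all genes. The same count was 0 of 9 for complex III, 2 of 10 for complex IV and 3 of 14 for ATP synthase.

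**Figure D5:**
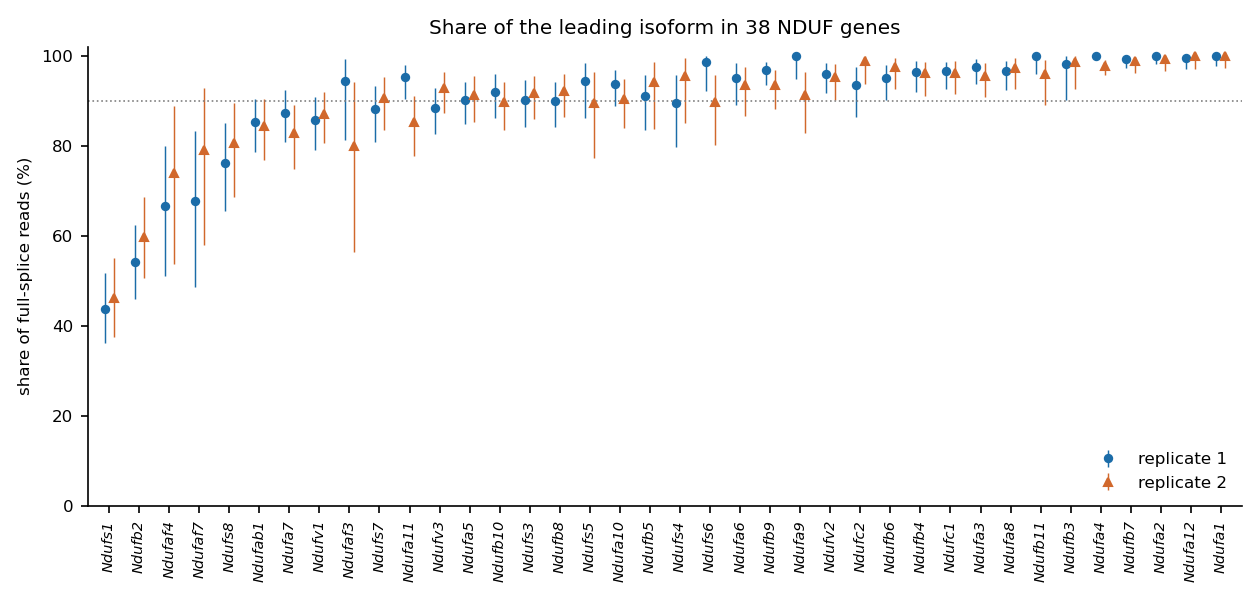
Share of full-splice reads held by the leading isoform, in percent, for 38 NDUF genes, with exact 95% Clopper-Pearson intervals for replicate 1 (circles) and replicate 2 (triangles). The dotted line is 90%; Ndufs1 at 43.8% and 46.2% is the lowest, and Ndufa1 is at 100% in both.

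Of the genes with 1 isoform, those with the most full-splice reads were Ndufa4, Ndufb7 and Ndufb9. Ndufa4-205 held 382 of 382 and 322 of 329 full-splice reads. Ndufb7-201 held 269 of 271 and 183 of 185, and Ndufb9-201 held 210 of 217 and 143 of 153. The lowest of these shares was that of Ndufb9-201 in replicate 2, at 93.5%.

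Ndufs1 (chr1:63143596-63176833, minus strand) was the most mixed. Ndufs1-201 held 71 of 162 and 61 of 132 reads (45.02% ± 1.69), and Ndufs1-203 held 47 and 42 (30.4% ± 1.98). Their first-exon donors lie 158 bases apart. A pair of unannotated combinations placed a further exon of 104 bases (chr1:63172154-63172257) after either first exon, with 16 and 16 reads (11.0% ± 1.59) and 10 and 6 reads (5.36% ± 1.15). All of these differences lie upstream of the start codon in exon 2. All Ndufs1 reads that span a whole annotated coding sequence (146 and 130) held the same 2181 coding bases. The other 23 and 10 reads held no whole annotated coding sequence and could not enter this comparison.

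Ndufb2 was split between transcripts that also share their coding sequence. Ndufb2-205 held 83 of 153 and 73 of 122 reads (57.0% ± 3.95), and Ndufb2-202 held 57 and 42 (35.8% ± 2.00). Their donors in exon 3 lie 4 bases apart, after the stop codon, and their annotated last exons are 3991 and 80 bases long. Ndufaf4 differed in coding capacity. Ndufaf4-201 held 30 of 45 and 20 of 27 reads (70.4% ± 5.24). Ndufaf4-202, a processed transcript that retains the 270-base first intron, held 14 and 6 (26.7% ± 6.29). With so few reads the interval for Ndufaf4-201 in replicate 2 ran from 53.7% to 88.9%.

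Unannotated chains with at least 5 reads in each library numbered 4, in 3 of the 45 NDUF genes. Over all genes they numbered 1318, in 975 of the 18497 genes with reads. That base includes genes with too few reads to reach 5 in each library, so these counts are not on a like base. As shares of reads, unannotated chains were rarer in the NDUF genes than in protein-coding genes, as given above. Ndufs1 had the 2 described above. In Ndufab1, 15 and 9 reads used an unannotated acceptor 104 bases upstream of the annotated one, in the intron after the stop codon (8.50% ± 1.58). In Ndufs3, 5 and 7 reads retained the neighbouring introns of 1478 and 334 bases (4.15% ± 0.958).

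Ndufv3 and Ndufs8 did not meet the rule for isoform detail and were chosen after their values were seen. Ndufv3-202, without the 1092-base coding exon 3 of Ndufv3-201, held 146 of 165 and 131 of 141 full-splice reads (90.7% ± 3.13). Ndufv3-201 held 15 and 9 reads. The coding sequences are 312 and 1404 bases. The junctions that tell them apart follow, with the first 30 or last 30 bases of the long exon (chr17:31527310-31528401) in capitals.
Ndufv3-202, exon 2 to exon 3: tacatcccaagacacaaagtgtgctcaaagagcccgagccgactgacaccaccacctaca
Ndufv3-201, exon 2 to exon 3: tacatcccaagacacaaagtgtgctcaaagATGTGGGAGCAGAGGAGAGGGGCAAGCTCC
Ndufv3-201, exon 3 to exon 4: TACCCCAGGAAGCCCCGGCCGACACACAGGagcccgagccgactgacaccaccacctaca

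Ndufs8-205 held 61 of 80 and 50 of 62 full-splice reads (78.4% ± 3.11). Ndufs8-201 held 11 and 5 (10.9% ± 4.02), and the rest was spread over several chains. All Ndufs8 reads that span a whole annotated coding sequence (75 and 62) held the same 636 coding bases. A further 7 and 8 Ndufs8 reads held none and could not enter this comparison. Over all NDUF genes, 73.0% ± 0.687 of reads spanned a whole annotated coding sequence. Of 38 genes with enough such reads, 32 had 1 coding sequence on 95% or more of them. This count leaves out reads without a whole annotated coding sequence, so unannotated or partial ones could not lower it. Neither value was computed over all genes. The exceptions were Ndufa11, Ndufa6, Ndufa7, Ndufb5, Ndufv1 and Ndufv3. Ndufv1-201 still held 92.9% ± 0.107 of the coding reads of its gene, and Ndufa7-201 held 94.5% ± 1.34. So Ndufv3, at 91.0% ± 2.75, was the lowest of these. The other coding reads of Ndufa7 (6 and 7) were those of Ndufa7-202, whose annotated type is nonsense-mediated decay, with 120 coding bases.

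Isoform use was compared between the libraries with a two-sided Fisher's exact test of the leading isoform against all other full-splice reads, adjusted over 4819 genes. None of the 39 NDUF genes was called at an adjusted p under 0.05, where the background was 0.187%. At an unadjusted p under 0.05, 5 of the 39 passed, against 172 of all 4819 genes (3.57%). The lowest adjusted p was 0.618 (Fisher's exact test), for Ndufa4, where 0 and 7 full-splice reads fell outside Ndufa4-205.

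Too few full-splice reads for shares were found in 6 NDUF genes. Ndufa13 had 2 and 2, Ndufaf1 had 19 and 17, Ndufaf2 had 6 and 5, Ndufaf5 had 19 and 15 and Ndufaf8 had 32 and 19. Ndufaf6 had 4 and 4.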

How the data were processed

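The authors deposited, per library, whole-number counts of long reads per TALON transcript model, with no normalization, and other values that give each deposited model's exon number and length. Per the deposited text files, these came from filtered alignments to mm10 with GENCODE M21; the aligner was not given in the sources used. Counts were summed per annotated gene, scaled to CPM over reads not on spike-ins, and models were joined across libraries by intron chain. Gene structures and sequences came from GENCODE M21. Tests were exact binomial and Fisher's exact tests (SciPy 1.17.1), checked on simulated counts, and edgeR 4.0.16 gave TMM factors for an alternative. Of 50 genes simulated with a 2-fold change, 30% were called, and of 50 with a 4-fold change, 90%, among 8768 genes. NDUF genes are named with their levels, except 1 that is not reported here and is counted in totals and tests; isoform detail was given to genes with a second isoform of 10% in each library, or with an unannotated leading isoform, and to unannotated models with 5 reads in each library. Of genes with 1 isoform, the 3 with the most full-splice reads were named, and for the library difference the genes past the threshold, or else the 3 largest folds. The genes and lists were chosen with earlier results of these data known. Without molecular identifiers, reads may repeat a molecule, and intervals cover counting error only. How reads from processed pseudogenes of these genes were assigned was not tested. The alternatives were classes counted, totals, read minimums, fold and share limits, pseudocounts, TMM and each library alone.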

Additional observations from a re-analysis of the deposited data

Results flagged for a closer look

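Antisense reads lie outside the comparisons above. Models that TALON called antisense overlapped the NDUF genes with 66 reads in replicate 1 and 75 in replicate 2. In 3 of the genes named here they numbered more than 3 in each library. The same count was not made over all genes, so these values have no background to be set against. Ndufa13 had 8 and 9 such reads, Ndufs6 had 10 and 5, and Ndufs4 had 4 and 7. Their source was not tested.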

How the results depend on the processing

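All 45 genes were detected in both libraries under every alternative, and 32 to 36 reached 100 CPM. The median level of 181 CPM was 191 without genomic models, 252 over full-splice reads only and 214 over reads on annotated genes. In these alternatives the total was also cut, to non-genomic, full-splice or annotated-gene reads. Their CPM values, here and below, are therefore not on the same scale as the main ones. Over full-splice reads only, Ndufa4 was still the highest, at 690.3 ± 17.5 CPM. Ndufa13 went from 334 to 3.90 CPM, Ndufb3 from 460.5 to 126 CPM, Ndufs7 from 336 to 219 CPM and Ndufaf7 from 104 to 53.2 CPM. The mitochondrially encoded median was then 84.7 CPM. That of the assembly factors with other names was 33.6 CPM over reads on annotated genes. The 0 genes called between the libraries became 1 without genomic models (Ndufb3) and 1 with no minimum fold (Ndufa13), and stayed at 0 under TMM scaling.

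The 3 genes with more than 1 isoform became 5 with a minimum of 10 full-splice reads, 5 in replicate 1 alone, 4 in replicate 2 alone and 6 at a share of 5%. The 29 genes with a leading isoform of 90% became 16 at 95%, and 16 with incomplete matches in the denominator, where the median share was 89.1%. That share was 94.6% with a minimum of 50 reads and ranged from 92.9% to 94.1% in single libraries. Unannotated models in both libraries numbered 12 at 2 reads and 1 at 10 reads. As medians per gene, the class shares were 94.5% full-splice, 3.88% incomplete and 0.718% genomic. Without Ndufa4 and Ndufa13, an alternative added after seeing the data, 84.4% were full-splice and 10.5% incomplete. No paired analysis was possible because there was only 1 group. Genes under about 20 reads, such as Ndufaf6, have levels and shares that counting error dominates.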
